A study of Mus musculus with 2 samples.

Results

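The inter-alpha-trypsin inhibitor family was described in mouse fetal liver as the 6 genes Ambp, Itih1, Itih2, Itih3, Itih4 and Itih5, chosen by symbol from 43346 mouse genes in the deposited gene tables, and all 6 were found. The study sequenced poly(A)+ RNA longer than 200 nt from livers that were taken from C57BL/6J embryos at day 18, and the labels name no transgene, treatment or second condition. The labels give the embryos as littermates of mixed sex without saying how many went into a library, and number the 2 stranded libraries as replicates 1 and 2 of that 1 group. With 1 group there is no contrast between conditions and no p-value, so each gene is given by its value in each library and by mean ± SD (n = 2).

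The family builds a set of plasma proteins. Ambp encodes a precursor that is cut into alpha-1-microglobulin, a small haem-binding lipocalin, and bikunin, a Kunitz-type protease inhibitor that carries a chondroitin sulfate chain. The Itih genes encode heavy chains. Those of Itih1, Itih2 and Itih3 are cleaved near their C-terminal end and joined through the new end to the chondroitin sulfate chain of bikunin, which makes inter-alpha-inhibitor and pre-alpha-inhibitor in hepatocytes. The heavy chains can then be moved from bikunin to hyaluronan, the large sugar polymer of extracellular matrix, by the protein of Tnfaip6. The product of Itih4 circulates on its own as an acute phase protein, and Itih5 is known mainly from tissues outside the liver.

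The site at which a heavy chain is cut and joined lies between an aspartate and a proline codon. It is shown first because it divides the heavy chain genes into those with a match and the 1 without. In GENCODE M21 coding sequences, the row of aspartate, proline, histidine and phenylalanine codons was found once each in Itih1-202, Itih2-201, Itih3-201 and Itih5-201, inside the stretch of 42 bases printed here, 5′ to 3′, with the aspartate and proline codons in capitals.
Itih1: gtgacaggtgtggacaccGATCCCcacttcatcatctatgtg
Itih2: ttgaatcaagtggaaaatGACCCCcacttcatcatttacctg
Itih3: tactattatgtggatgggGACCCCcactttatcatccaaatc
Itih5: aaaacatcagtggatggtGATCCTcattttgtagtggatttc
The capitals lie on mm10 at chr14:30932300-30932305 in exon 18 of 22 for Itih1, at chr2:10098554-10098559 in exon 17 of 21 for Itih2 and at chr14:30912716-30912721 in exon 18 of 22 for Itih3, all on the minus strand. For Itih5 they lie at chr2:10245532-10245537 in exon 12 of 14 on the plus strand. In all 4 genes the aspartate codon began 8 bases after an exon junction, at codon 668 of 907 (Itih1), 706 of 950 (Itih2), 649 of 889 (Itih3) and 681 of 952 (Itih5). None of the 4 coding models of Itih4 (902 to 942 codons) held that row, although each held 3 or 4 aspartate codons followed by a proline codon.

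The matching part of Ambp is shown because it holds both the cut between the 2 proteins and the place where the sugar chain is attached. In Ambp-201 the capitals mark 4 codons with the basic residues cut by furin-like enzymes (chr4:63145335-63145346, codons from 201 of 349) and then the serine codon, number 214, that carries chondroitin sulfate (chr4:63145305-63145307), both in exon 7 of 10.
Ambp: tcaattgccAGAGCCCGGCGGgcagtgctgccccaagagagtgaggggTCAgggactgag

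Ambp was the highest member and Itih5 was the lowest, with Itih3, Itih2, Itih4 and Itih1 in falling order between them. On the TPM scale (a share of all transcripts, corrected for length), Ambp (ENSMUSG00000028356.4) stood at 1791 in replicate 1 and 1879 in replicate 2, a level of 1835 ± 61.9. That level ranked 38 among protein-coding genes, above 99.7% of the 11568 that reached 1 TPM in both libraries. Its counts were 293178 and 253005.

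Itih3 (ENSMUSG00000006522.11) followed at 947 and 1223 TPM, or 1085 ± 195, at rank 82. It had more counts than Ambp, 425294 and 458816, over a longer transcript. Itih2 (ENSMUSG00000037254.14) stood at 585.4 and 586.2 TPM (585.8 ± 0.509) at rank 154, from 262390 and 217445 counts. Itih4 (ENSMUSG00000021922.11) stood at 449.8 and 460.5 TPM (455 ± 7.57) at rank 197, from 164260 and 138535 counts. The 2 libraries lay close together for Itih2 and Itih4 and far apart for Itih3 alone among the 5 highest members, with a coefficient of variation of 18.0% against 0.0869% to 3.37%.

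Itih1 (ENSMUSG00000006529.10), whose protein is one of the heavy chains of inter-alpha-inhibitor, was the lowest of the heavy chains that join bikunin. It stood at 129.8 and 129.1 TPM (129 ± 0.467), rank 588, from 51963 and 41840 counts. Itih5 (ENSMUSG00000025780.7) stood at 3.70 and 4.13 TPM (3.92 ± 0.304), from 4418 and 4090 counts, and ranked 8708, above 24.7% of the protein-coding genes at 1 TPM or more. No library of one member overlapped those of its neighbour in the order of TPM. Itih2 exceeded Itih5, its neighbour on the chromosome, 150 ± 11.5 times by TPM.

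**Figure D1:**
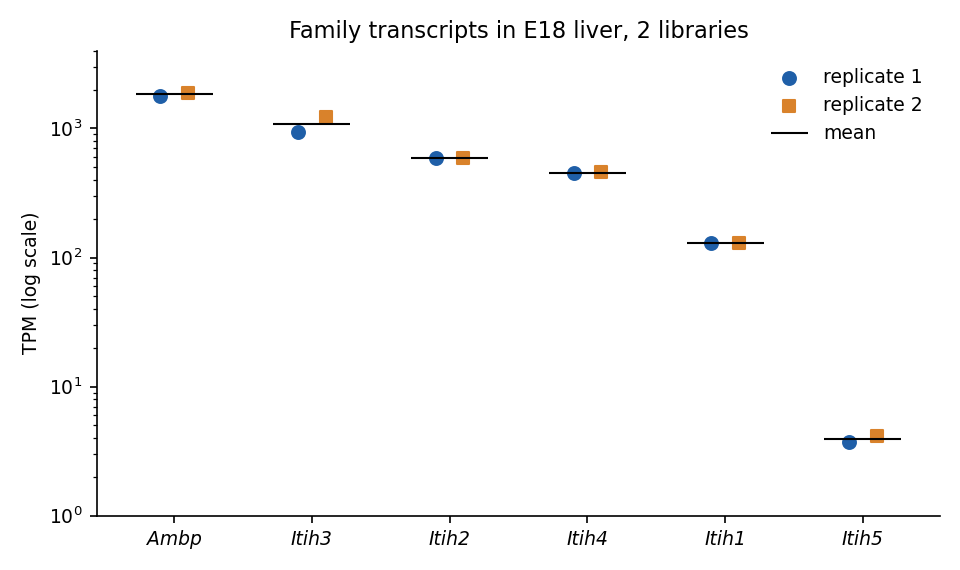
TPM of the 6 family genes (log axis) in replicate 1 (circles) and replicate 2 (squares), with a line at the mean of the 2 libraries. Ambp lies highest at 1791 and 1879 TPM, Itih5 lowest at 3.70 and 4.13, and Itih3 is the member whose 2 points lie visibly apart.

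The 6 members together held 0.405% of the TPM of mouse genes in replicate 1 and 0.440% in replicate 2 (0.422% ± 0.0248). Of that sum, Ambp made up 44.9% ± 1.39, Itih3 26.4% ± 3.06, Itih2 14.3% ± 0.916, Itih4 11.1% ± 0.536, Itih1 3.17% ± 0.217 and Itih5 0.0956% ± 0.00124. The 3 heavy chains that join bikunin (Itih1, Itih2 and Itih3) summed to 0.928 of the Ambp level in replicate 1 and 1.03 in replicate 2, a ratio of 0.980 ± 0.0734. Within that sum, Itih3 alone stood at 0.529 and 0.651 of Ambp, Itih2 at 0.327 and 0.312, and Itih1 at 0.0725 and 0.0687. The ratio depends on length scaling, since by counts it was 2.52 and 2.84. It was 2.10 and 0.952 in the 2 RPKM values (reads per length and depth) that the authors deposited on mm9, and 0.649 and 0.638 when only transcripts that M21 calls coding were summed. The last 2 values rest on the estimated split of each gene between its models.

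The tissue and the 2 libraries were checked as follows. The libraries held 163766625 and 139889938 expected counts. All 10 hepatocyte markers were at 1 TPM or more in both, with summed levels of 146290 and 149402 TPM. The labels call both libraries mixed sex, while Xist had 157187 counts in replicate 1 and 41 in replicate 2, and 4 Y-linked genes had 8 and 18351. By these counts replicate 1 was nearly all female and replicate 2 male. Every gap and SD between the 2 libraries therefore spans a difference of sex, whose part was not tested. The 8 pancreas acinar markers summed to 56.2 TPM in replicate 1 and 0.890 in replicate 2, the 6 muscle markers to 16.5 and 6.84, and the 8 neutrophil markers to 9081 and 13075.

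No member differed beyond 2-fold between the 2 libraries, in a comparison where 272 of 14956 genes with a mean count of at least 50 did so, which is 1.82%. The log2 ratio of replicate 2 over replicate 1, on counts scaled by TMM (edgeR), was -0.05 for Ambp, -0.15 for Itih1, -0.11 for Itih2, -0.08 for Itih4 and 0.05 for Itih5. Itih3 had the largest ratio of the 6, at 0.27 or 1.21-fold, with scaled counts of 401605 and 485879. Its counting interval was 0.27 to 0.28, an exact Clopper-Pearson interval that covers counting error only. Of all genes tested, 22.9% were at least as far from 0 as Itih3. At 1.5-fold, 5.71% of genes and 0 of 6 members were called.

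The median over the 6 members was -0.06 on this scale, against 0.00 over all genes tested. The sign of the smaller ratios depends on the scaling, and TPM moves the median of all genes to 0.11. Relative to the median of all genes, Itih3 and Itih5 were higher in replicate 2 and the other 4 lower, both on counts, where the scalings differ only by a constant, and on TPM. The counting interval of Itih5, -0.01 to 0.12, spans 0. The median ratio of the 8 neutrophil markers, 0.38 on the log2 scale, was also above 0, and all 7 acinar markers with enough counts were lower beyond 2-fold. The median log2 ratio was 0.07 over the 10 stellate and mesenchymal markers, -0.55 over 5 cholangiocyte markers and -0.33 over 6 mesothelial markers. The part of these cells in the values of Itih3 and Itih5 was not tested, and in whole tissue fewer cells of a type and less RNA per cell cannot be told apart.

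**Figure D2:**
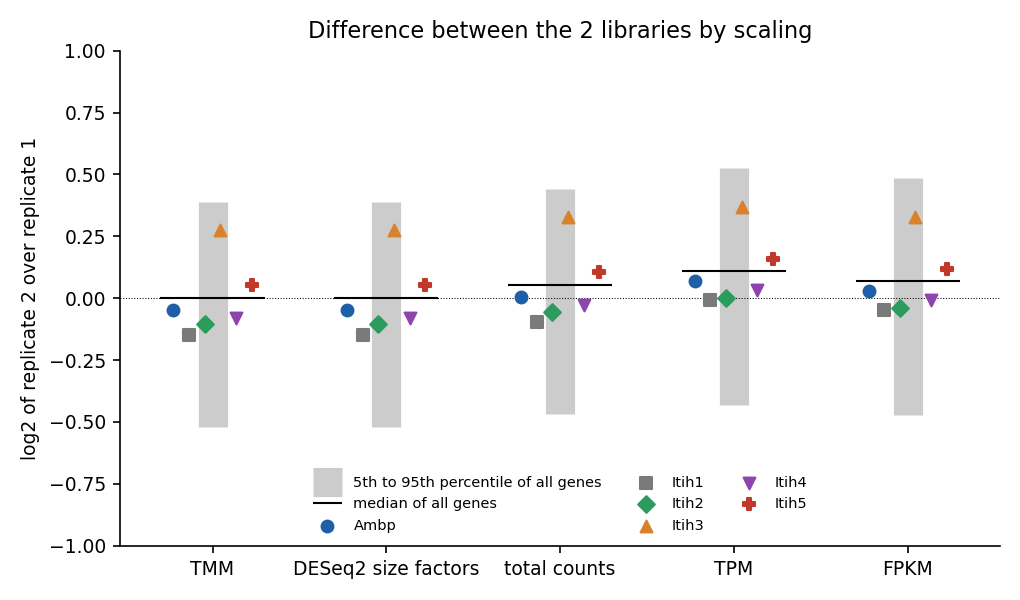
Log2 ratio of replicate 2 over replicate 1 for each member (symbols) under 5 scalings, with the 5th to 95th percentile of 14956 genes as a grey bar and their median as a line. Itih3 lies above the other members under each scaling, from 0.27 with TMM to 0.37 with TPM, and inside the grey bar each time.

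By the mean of its 2 values, the mm9 gene table gave the same order of members. The 2 values are named RPKM1 and RPKM2 and are not tied by the labels to a numbered library. Ambp had 293 and 292 RPKM, Itih3 390 and 157, Itih2 184 and 98.3, Itih4 119 and 88.4, Itih1 39.9 and 22.4, and Itih5 0.957 and 0.876. Itih3 exceeded Ambp in RPKM1 and not in RPKM2. The 2 values of Itih3 stood 2.48-fold apart, and Itih3 was the 1 member beyond 2-fold there. Of the 8685 genes there at 1 RPKM or more in both values, 18.4% were beyond 2-fold, and the median log2 ratio over them was 0.33.

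Transcript models were then read from the deposited transcript tables, in which each model has a percent of its gene's TPM. Ambp, Itih2 and Itih5 each rested on 1 model. Ambp-201 (1268 nt) held 99.98% and 99.99% of Ambp, Itih2-201 (3100 nt) held 99.87% and 99.88% of Itih2, and Itih5-201 (7900 nt) held 100% in both libraries. Itih1-202 (3077 nt) held 78.1% and 79.4% of Itih1. Itih1-201, of the same length, held 11.3% and 8.05%, and a 353-nt model, ENSMUST00000166913.1, held 10.5% and 12.6%. The short model owes that share to the length scaling, as it took 0.565% and 0.644% of the counts of the gene.

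Itih3 and Itih4 were each split over several models. In Itih4 the shares were alike in the 2 libraries. Itih4-202 (2993 nt) held 44.4% and 44.4%, Itih4-201 (3159 nt in these files) held 30.6% and 30.2%, and the 795-nt ENSMUST00000134988.1 held 21.8% and 22.1% of TPM but 5.37% and 5.42% of counts. In Itih3 the 3302-nt ENSMUST00000112141.5 held 49.4% and 57.4%, and the coding Itih3-201 (2991 nt) held 48.7% and 40.8%. The 3302-nt model stood at 468 and 702 TPM and Itih3-201 at 461 and 499 TPM. Of the 276 TPM by which Itih3 was higher in replicate 2, the deposited split between models thus gave 234 TPM to the 3302-nt model. That split is an estimate. That identifier and 5 others of the family are not in M21, where retained-intron models of the same lengths (3302, 795 and 353 nt) stand under other identifiers.

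**Figure D3:**
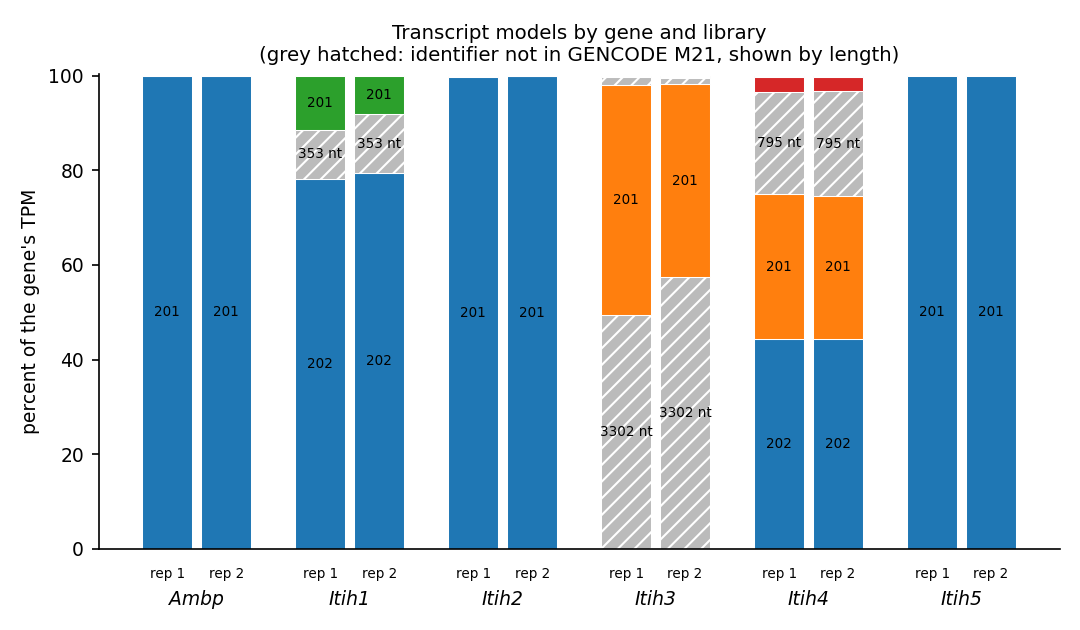
Percent of each gene's TPM held by its transcript models in replicates 1 and 2, with models labelled by their M21 number, or by their length and hatching where the identifier is not in M21. Ambp, Itih2 and Itih5 show 1 model each, while the 3302-nt model of Itih3 holds 49.4% in replicate 1 and 57.4% in replicate 2.

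Splice junction reads gave a second view of the same genes, on mm9. The deposited list holds 2 counts for each junction, R1 and R2, which the labels do not tie to a numbered library. They sum to 125662357 and 105325114 reads over 1077149 junctions, so that R2 is 0.838 of R1 overall. Scaled to 1000000 junction reads, the members had 3139 and 3130 reads (Ambp), 3978 and 5168 (Itih3), 2252 and 2246 (Itih2), 1552 and 1592 (Itih4), 444 and 423 (Itih1) and 11.5 and 12.1 (Itih5). These values are not corrected for length, and Itih3 was again the member whose 2 values lay farthest apart.

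All annotated introns of Ambp (10), Itih1 (22) and Itih5 (13) were crossed by reads, as were 20 of 23 in Itih2, 21 of 23 in Itih3 and 24 of 25 in Itih4. In Ambp the highest annotated junction (chr4:62812565-62813617) had 63092 and 52939 reads, and the lowest (chr4:62815181-62815692), which belongs to a short second model, had 5 and 3. Itih2 ranged from 28547 and 23307 reads (chr2:10020195-10023701) down to 9 and 12 (chr2:10052279-10052627). Of its introns without an exact match, 2 were crossed at a place shifted by 1 nt with 16681 and 15070 reads (chr2:10018876-10019527) and with 6019 and 5563 reads (chr2:10028461-10031106).

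In the locus of chromosome 14, Itih1 ranged from 4486 and 3707 reads (chr14:31744549-31745385) to 69 and 38 (chr14:31755825-31756079), and Itih4 from 15307 and 13242 (chr14:31708745-31708996) to 773 and 650 (chr14:31709957-31711042). Itih3 ranged from 42959 and 43122 (chr14:31725916-31726061) to 49 and 44 (chr14:31725997-31726346). Itih5 had 210 and 242 reads at its highest junction (chr2:10167268-10170715) and 48 and 31 at its lowest (chr2:10107310-10108581), so each of its junctions rests on few reads.

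The ratio of R2 to R1 varied within each gene, over junctions with at least 100 reads in all. It ran from 0.716 to 0.933 over 9 junctions of Ambp, from 0.658 to 0.940 over 20 of Itih2 and from 0.759 to 0.989 over 24 of Itih4. In Itih3 it ran from 0.939 to 1.49, and R2 exceeded R1 at 16 of 20 junctions. In Ambp, Itih1, Itih2 and Itih4 R2 exceeded R1 at 0 of 9, 0 of 22, 0 of 20 and 0 of 24, and in Itih5 at 3 of 10. These numbers follow the depth, since R2 is 0.838 of R1 over all junctions. Against that value, the median ratio was 0.846 in Ambp, 0.807 in Itih1, 0.845 in Itih2, 0.860 in Itih4 and 0.855 in Itih5. In Itih3 it was 1.11, and its lowest ratio was also above 0.838.

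**Figure D4:**
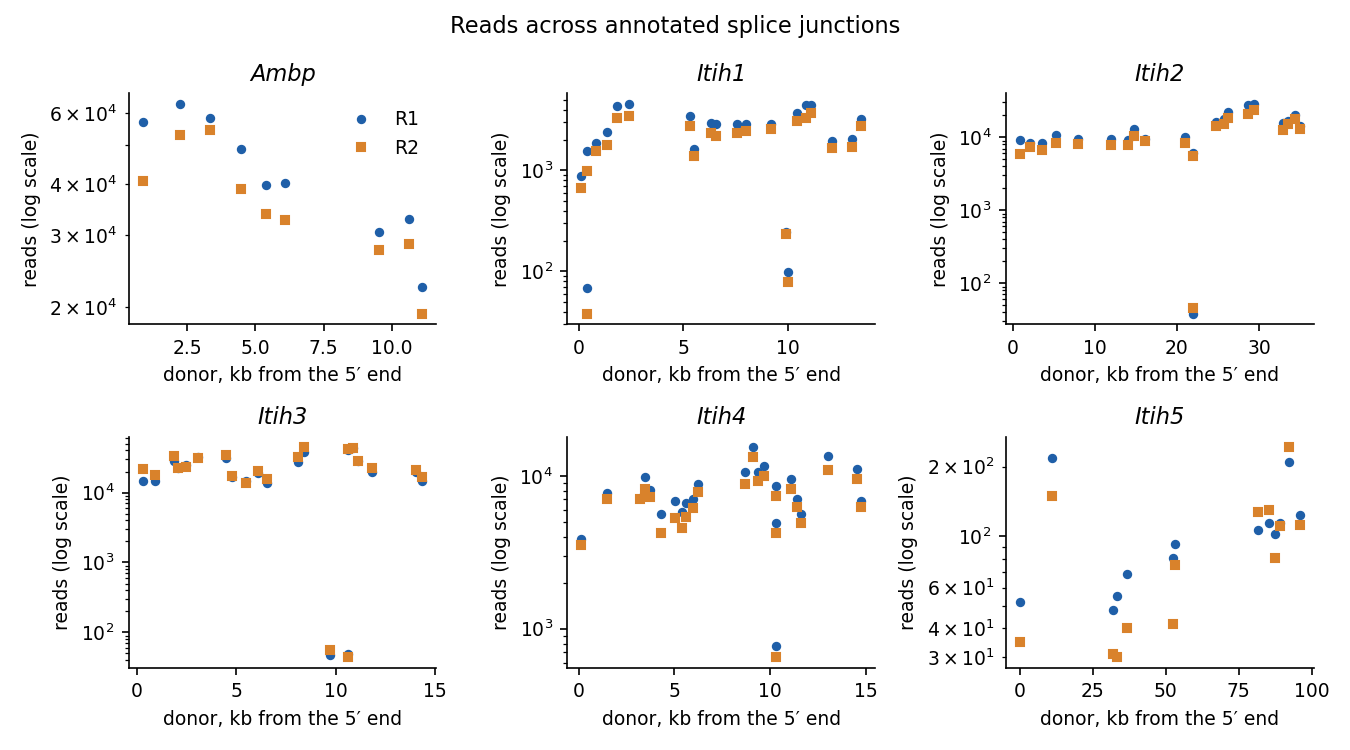
Reads across annotated junctions, including 2 of Itih2 shifted by 1 nt, of each member (log axis), by distance of the donor from the 5′ end of the gene, with R1 as circles and R2 as squares. Among the junctions shown, those with at least 30 reads in R1 and R2 together, R1 lies above R2 along Ambp, Itih1, Itih4 and all of Itih2 but 1 junction with 38 and 45 reads, the 2 counts cross over in Itih3, and Itih5 has 48 to 218 reads in R1. Over all junctions R2 is 0.838 of R1.

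The 2 main models of Itih3 by mm10 TPM differ in 1 intron, which many reads spliced. The mm9 model ENSMUST00000112141 keeps an intron of 487 nt (chr14:31730974-31731460) that ENSMUST00000006697 removes. It also has a shorter first exon, of 131 nt against 304 nt. The junction that removes the intron had 14605 and 13714 reads, and its neighbours had 18903 and 20684 on one side and 16587 and 17463 on the other. That is 0.823 and 0.719 of the mean of the 2 neighbours. Among 19 annotated junctions of Itih3 with over 1000 reads, 2 were lower than this one in R1 and 0 in R2, in ranges of 13797 to 42959 and 13714 to 44151. The mm9 transcript table listed ENSMUST00000112141 at 293 and 119 RPKM. Of the models that remove the intron, it listed ENSMUST00000170415 at 81.2 and 31.4 and ENSMUST00000006697 at 4.41 and 1.46. Reads that keep the intron are not counted in the junction list, so these ratios give no share of spliced RNA. The 49.4% and 57.4% of TPM given to the model that keeps the intron were not checked against reads in the intron.

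A 3-nt exon of Itih3 lies 77 bases before the cleavage codons in the RNA. It is shown with its flanks from Itih3-201 because a frequent junction that the annotation does not hold spans it (capitals mark the exon, chr14:30914049-30914051 on mm10, exon 15 of 22).
Itih3: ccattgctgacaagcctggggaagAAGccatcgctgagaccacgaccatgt
The direct junction that leaves out the exon (chr14:31726380-31727838 on mm9) had 577 and 635 reads. A junction with ends 2 nt and 1 nt away from it (chr14:31726382-31727837), and therefore with 3 nt more RNA, had 30031 and 32222 reads. The direct form made up 1.89% (95% interval 1.74 to 2.04) and 1.93% (1.79 to 2.09) of the 2. Whether the 3 extra bases are those of the 3-nt exon cannot be read from the list. The annotated junction that leads out of that exon to the next one (chr14:31726380-31727234) had 47 and 56 reads.

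Unannotated junctions took 7.33% of the junction reads of Itih3 in R1 and 7.39% in R2. The one with 3 extra bases held 30031 and 32222 of these 36660 and 40205 reads. The list gives each junction a flag C, which was not used as a filter. It is 0 for this junction and for the 2 frequent Itih2 junctions shifted by 1 nt. The share was 0.326% and 0.281% in Ambp, 0.443% and 0.416% in Itih2 and 0.963% and 0.958% in Itih4. It was 0.658% and 0.561% in Itih1, and 3.75% and 5.34% in the sparse reads of Itih5. Annotated introns shifted as a whole by a few nt do not count as unannotated in these shares. The 2 frequent junctions of Itih2 shifted by 1 nt are therefore left out, so the shares of Itih2 and Itih3 are not alike in what they count. In the first intron, 2 junctions (chr14:31736027-31736250 with 1445 and 1555 reads, and chr14:31736367-31736642 with 527 and 674) enclosed a stretch of 116 nt that is no annotated exon. The mean of these 2 junctions made up 6.31% (5.93 to 6.70) and 4.84% (4.57 to 5.13) of the total with the annotated junction (14637 and 21881 reads). A donor 93 nt inside the intron before the 36-nt exon (chr14:31726098-31726253) took 2.87% (2.72 to 3.04) and 3.86% (3.68 to 4.05), with 1212 and 1699 reads. For both of these events the intervals of R1 and R2 did not overlap, and no test across samples was possible with 2 values. The junctions chr14:31736367-31736642 and chr14:31726380-31727838 were named for these events after their values were seen.

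**Figure D5:**
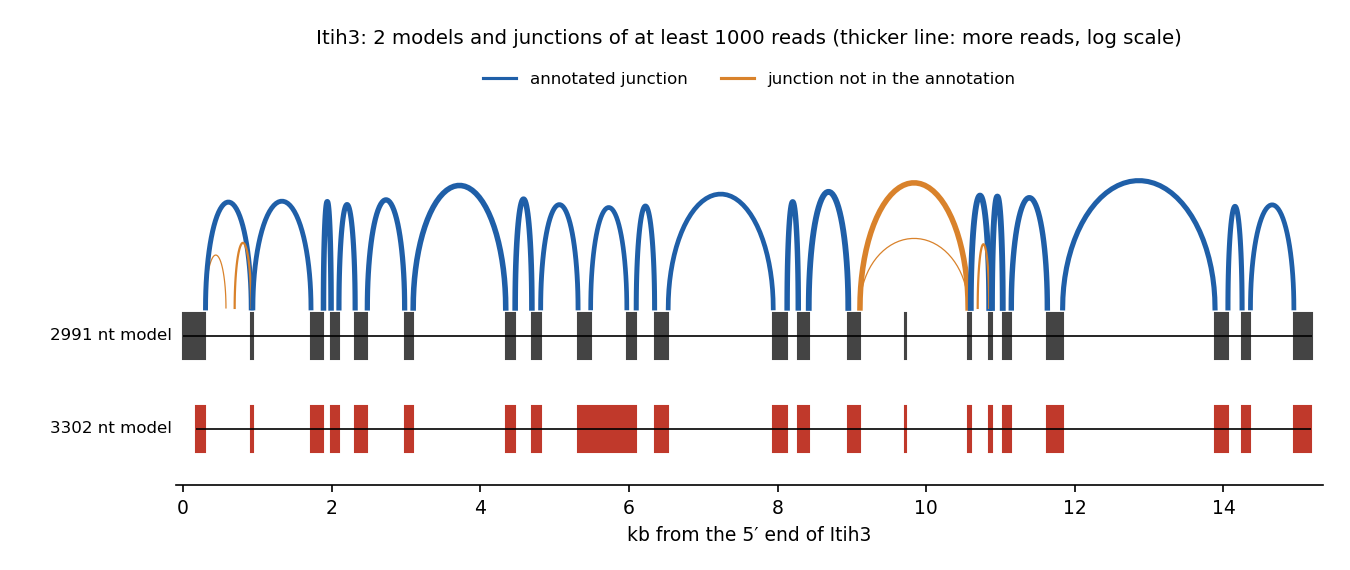
The mm9 models of ENSMUST00000006697 and ENSMUST00000112141, the 2 main models of Itih3 by mm10 TPM (boxes are exons), by distance in kb from the 5′ end. Junctions of at least 1000 reads are arcs whose thickness follows the log of the reads. The red 3302-nt model differs in its first exon and in 1 long exon that holds the 487-nt intron, which an annotated junction with 14605 and 13714 reads removes, and the thick orange arc spans the 3-nt exon.

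In Itih4 the alternative junctions held nearly the same shares in R1 and R2. From 1 donor, 2 acceptors lie 3 nt apart, and the bases between them (capitals) are shown with the flanking RNA from Itih4-203, where they lie at chr14:30897523-30897525 on mm10.
Itih4: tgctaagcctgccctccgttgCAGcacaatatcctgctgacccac
The nearer acceptor (chr14:31709957-31710708 on mm9) had 4940 and 4245 reads and the farther one (chr14:31709957-31710711) had 8558 and 7344, so the form with the CAG made up 36.6% in both (35.8 to 37.4 and 35.8 to 37.5). Itih4-203 is the 1 coding M21 model with the CAG. The quantified model under that name held 0.220% and 0.170% of Itih4 TPM. Its length of 2980 nt is that of Itih4-201 in M21, so its share cannot be set against that of the junction. The exon, of 51 or 48 nt, was left out altogether (chr14:31709957-31711042) in 7.48% (6.98 to 8.01) and 7.35% (6.81 to 7.91), measured against the junction after it. That junction had 9556 and 8196 reads, fewer than the 2 junctions into the exon together. Measured against those, the share would be lower. A 30-nt exon was left out (chr14:31708745-31709288) in 180 and 191 reads, or 1.37% (1.18 to 1.58) and 1.67% (1.44 to 1.92), here measured against the mean of the 2 junctions of the exon. A junction near the annotated one but 1 nt shorter (chr14:31710759-31711040) had 1150 and 982 reads, or 10.7% (10.2 to 11.3) and 10.7% (10.1 to 11.3). Both its ends lie within 10 nt of an annotated intron, and its flag C is 0, against 1 for the other junctions of this paragraph. Whether it is a splice form or a shifted alignment was not tested.

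In the remaining members, unannotated junctions with at least 10 reads in both counts numbered 21 in Ambp, 19 in Itih2, 3 in Itih1 and 1 in Itih5. Shifted introns are included in these numbers, as are junctions with both ends within 10 nt of an annotated intron. Splice forms and shifted alignments were not told apart among them. In Itih1, 2 annotated acceptors 12 nt apart shared a donor, and the less used one took 4.28% (3.35 to 5.39) and 3.70% (2.63 to 5.04). Its most frequent unannotated junction (chr14:31755813-31756034) had 66 and 42 reads. In Ambp the most frequent one (chr4:62811478-62812487) had 49 and 51 reads beside 58325 and 54409 at the annotated junction that differs from it by 1 nt. In Itih2 a junction from inside the last exon to a place beyond the 3′ end of the gene (chr2:10013842-10016353) had 62 and 66 reads. In Itih5 the only unannotated junction with at least 10 reads in both (chr2:10164935-10167150) had 49 and 58 reads. That is 30.1% (23.1 to 37.7) and 34.3% (27.2 to 42.001) of the total with the annotated junction to the same acceptor (114 and 111 reads). A contig, which is a stretch of stranded coverage, lies at its donor (chr2:10164731-10165082) with a signal of 0.427, the highest of 56 contigs in introns of Itih5.

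The members lie in 3 loci, and their closest neighbours outside the family were low. On mm10, Itih4 (chromosome 14, 30886476 to 30902353, plus strand), Itih3 (30908572 to 30923760, minus) and Itih1 (30929180 to 30943289, minus) stand side by side, 6219 and 5420 nt apart. They lie between Mustn1 (1.85 ± 0.0424 TPM) and the kinase gene Nek4 (1.90 ± 0.0990). Itih2 (chromosome 2, 10094593 to 10131396, minus) and Itih5 (10153571 to 10256529, plus) lie 22175 nt apart with opposite strands, after Kin at 6.16 ± 0.0283 TPM. On the far side of Itih5 the nearest genes, Gm13261 and the coding Sfmbt2, stood at 0.0400 ± 0.0424 and 0.230 ± 0.0707 TPM. Ambp (chromosome 4, 63143275 to 63154799, minus) lies between Zfp618 (4.92 ± 0.318) and the kinesin gene Kif12 (2.96 ± 0.361). In the wider neighbourhood, 16 of 20 listed genes were at 1 TPM or more, led by Atp5c1 at 261 ± 6.79 and the signal peptidase gene Spcs1 at 209 ± 0.198.

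Coverage contigs over both replicates, on a scale that the sources used here do not give, were highest over Itih3 and lowest over Itih5. The highest exonic contig had a signal of 204 in Itih3, 155 in Ambp, 72.4 in Itih4, 60.3 in Itih2, 26.1 in Itih1 and 3.30 in Itih5. Contigs covered 98.5% to 100% of the span of each of the 5 highest members, introns included, and 33.5% of Itih5. On the strand of the gene, contigs off the annotated exons of the family had lower signals than the highest exonic ones. They reached 0.543 beside Ambp (chr4:62816357-62820590) and 0.218 beside Itih4 (chr14:31697547-31697813). In Itih5 the highest intronic contig had 0.427, against 0.402 in the lowest exonic one. In the 5 highest members contigs mostly hold introns and exons together, so intron signal was not measured apart. A contig of Itih1 with a signal of 24.8 (chr14:31739518-31750024) ran past its 3′ end toward Itih3. On the strand opposite to each member the highest signals were 0.0380 in Ambp, 0.0820 in Itih1, 0.0490 in Itih4 and 0.160 in Itih5 (chr2:10074798-10075035). In Itih2 it was 1.40 in a contig of 13063 nt (chr2:10001823-10014885) that ends before the gene, on the strand of Kin.

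RefSeq promoters (GRCm38.p6) were found for all 6 members, and those of Ambp, Itih3 and Itih5 are printed because these are the highest inhibitor gene, the highest heavy chain and the lowest member. Each runs from 250 bases before to 30 after the RefSeq start, 5′ to 3′ on the strand of the gene. Capitals mark matches on either strand to the core promoter motif TATAAA, the Sp1 motif GGGCGG, the NF-Y motif CCAAT, the forkhead motif TGTTTAC, the nuclear receptor motif AGGTCA, the HNF1 motif GTTAAT and the C/EBP motif TTGCNNAA.
Ambp, chr4:63154143-63154422, minus strand: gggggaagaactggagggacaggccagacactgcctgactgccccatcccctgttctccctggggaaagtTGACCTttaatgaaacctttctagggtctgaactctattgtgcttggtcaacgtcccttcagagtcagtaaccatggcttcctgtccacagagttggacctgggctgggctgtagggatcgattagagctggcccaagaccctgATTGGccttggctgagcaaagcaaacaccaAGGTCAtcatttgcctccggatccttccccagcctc
Itih3, chr14:30923558-30923837, minus strand: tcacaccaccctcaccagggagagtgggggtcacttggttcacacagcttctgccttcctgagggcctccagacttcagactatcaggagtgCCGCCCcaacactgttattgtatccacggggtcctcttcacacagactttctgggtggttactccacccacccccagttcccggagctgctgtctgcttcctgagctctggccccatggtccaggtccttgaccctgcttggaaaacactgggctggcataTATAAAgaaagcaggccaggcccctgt
Itih5, chr2:10153293-10153572, plus strand: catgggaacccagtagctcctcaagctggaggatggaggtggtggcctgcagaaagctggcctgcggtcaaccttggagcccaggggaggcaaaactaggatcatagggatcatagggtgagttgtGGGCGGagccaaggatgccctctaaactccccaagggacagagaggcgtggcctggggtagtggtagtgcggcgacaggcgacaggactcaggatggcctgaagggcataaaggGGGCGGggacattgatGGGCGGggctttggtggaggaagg

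Ambp held 2 matches to AGGTCA, 180 and 6 bases before the start on opposite strands, and 1 to CCAAT. Itih3 held TATAAA from base 4 after the start and 1 GGGCGG. Itih5 held 3 matches to GGGCGG and no other match, at 61.1% G and C with 8 CpG, against 42.1% to 57.5% and 1 to 4 CpG in the other members. Of the members not printed, Itih1 held 1 match to GTTAAT, Itih2 1 to TTGCNNAA, and Itih4 1 each to AGGTCA and TATAAA, the latter on the strand opposite to the gene. Among 32851 windows of this length, 13.1% held TATAAA, 34.7% GGGCGG, 36.1% CCAAT, 15.3% AGGTCA, 6.85% GTTAAT, 10.4% TTGCNNAA and 3.49% TGTTTAC. The matches are letters in a window and were not tied to binding by any file.

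Genes that act on the proteins of this family were described as lists. No gene of the 7 lists named in this and the next 2 paragraphs differed beyond 2-fold between the libraries among those with a mean count of at least 50. Over all genes with that count, 1.82% did. Such genes numbered 7 for cleavage and gamma-carboxylation, 24 for chondroitin, 13 for hyaluronan and 9 for proteases. They numbered 10 for Kunitz-type inhibitors, 6 for lipocalins and 17 for regulators. Genes with fewer counts were not called, among them the protease gene Prss1 with 80 and 0 counts. All 7 genes of proprotein cleavage and gamma-carboxylation were at 1 TPM or more in both libraries. Vkorc1, which recycles vitamin K, was highest at 364 ± 22.3 TPM, followed by the proprotein convertase Furin at 22.4 ± 3.87, the gamma-carboxylase Ggcx at 19.2 ± 2.68 and Vkorc1l1 at 14.2 ± 0.559. Of 24 genes that build and sulfate chondroitin chains, 19 reached 1 TPM. They were led by B3gat3, which completes the linker sugar, at 23.4 ± 1.51, Ugdh at 16.7 ± 5.24, and the sulfate donor synthases Papss2 and Papss1 at 11.1 ± 0.311 and 8.22 ± 0.325. Of the xylosyltransferases that start the chain, Xylt2 stood at 3.44 ± 0.361 TPM and Xylt1 at 0.385 ± 0.0778.

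Of 19 hyaluronan genes found, 9 reached 1 TPM in both libraries. Tnfaip6, whose protein moves heavy chains to hyaluronan, was at 0.180 and 0.130 TPM from 42 and 25 counts. The hyaluronan synthase Has2 was at 0.230 and 0.290 TPM, from 142 and 148 counts. Higher on this list stood the serum protease gene Habp2 (58.0 ± 1.11 TPM), the hyaluronidase Hyal2 (34.3 ± 0.0495), and the endothelial scavenger receptor Stab1 (29.9 ± 6.58) and hyaluronan receptor Lyve1 (22.9 ± 0.361).

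Among proteases, 9 of 10 listed genes reached 1 TPM, led by prothrombin (F2, 1160 ± 37.0), plasminogen (Plg, 851 ± 11.7), F12 (214 ± 3.21) and the neutrophil protease Prtn3 (205 ± 41.2). Other Kunitz-type inhibitors were lower than Ambp, with 7 of 14 at 1 TPM or more and Aplp2 highest at 91.3 ± 5.83, then Spint2 (56.2 ± 1.64), Tfpi2 (43.4 ± 4.38) and App (22.8 ± 4.43). Of 13 other lipocalins, 5 reached 1 TPM. The retinol carrier Rbp4 stood beside Ambp at 1912 ± 31.6 TPM, and Lcn2, Apom and C8g stood at 498 ± 93.5, 440 ± 27.1 and 79.9 ± 2.09. Of 18 listed regulators, 17 reached 1 TPM, led by the hepatocyte factors Cebpa (92.3 ± 16.0) and Hnf4a (63.3 ± 5.03), Cebpb (37.6 ± 0.622) and the bile acid receptor Nr1h4 (33.0 ± 0.198).

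All 5 partners and related scavengers of alpha-1-microglobulin were at 1 TPM or more, namely albumin (Alb, 75536 ± 311), haptoglobin (Hp, 1483 ± 92.7), prothrombin, haemopexin (Hpx, 745 ± 14.96) and 1 more gene. Of the family genes outside the 6 members, the pseudogene Itih5l-ps had 3 and 1 counts. Itih6 is not analysed here.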

How the data were processed

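For each library the authors quantified genes and transcripts on mm10 against GENCODE M4, as text deposited beside the tables states. The deposited expected count is an estimated number of fragments per gene or transcript. Deposited TPM is corrected for effective length and scaled to a fixed total, deposited FPKM is the fragment density by length and depth, and the transcript tables give the percent of gene TPM. On mm9 the authors deposited RPKM values, whole junction read counts and a contig signal for both replicates (ENSEMBL V65). The aligner is not given in the sources used here, nor is the quantifier.

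The 6 members and all gene lists were chosen with earlier results of these data known, and they give no independent support. Symbols and positions came from GENCODE M21 by identifier (42462 of 43346 matched); coordinates were not converted between builds. Klkb1, Tmem2, Stimate and Atp5f1c were not matched under these spellings. Tmem2, Stimate and Atp5f1c were used under the names Cemip2, Tmem110 and Atp5c1, and Klkb1 was not used. Expected counts were rounded and scaled by TMM (edgeR 4.0.16, R 4.3.3), with DESeq2 1.42.0 size factors as an alternative. Ratios had 0.5 counts added, so they understate differences of low genes. The 2-fold call was made only for genes averaging 50 counts or more. The step was tested on simulated data. Junctions joining annotated exon ends used ENSEMBL V65 exons, and shares have exact Clopper-Pearson 95% intervals for counting error only, since reads are not independent molecules. Exon RPKM values equalled the sums of their transcripts' and were not used. Named were the members with models of at least 10% of TPM, the 4 highest genes of each functional list and 7 others fixed by name, the nearest neighbours, the highest and lowest junctions, and up to 3 unannotated junctions and contigs a gene. Alternatives were other units, scalings, denominators, filters and leaving out each library.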

Additional observations from a re-analysis of the deposited data

How the results depend on the processing

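With 2 libraries of 1 group, each SD rests on 2 values, and the counting intervals of the junction shares say nothing of variation between livers. No paired analysis was possible because there is only 1 group. The order of the 6 members was kept with FPKM, with mm9 RPKM and without each replicate. With counts and no length scaling, 4 of the 6 kept their place, as Itih3 then stood above Ambp. The family share of TPM ranged from 0.405% to 0.440% without one or the other replicate, and it was 0.478% of protein-coding nuclear genes and 0.452% without mitochondrial genes. The ratio of heavy chains to Ambp ranged from 0.928 to 1.03 without one or the other replicate. It was 1.52 with mm9 RPKM, 1.23 with Itih4 added, 0.643 with coding transcripts only and, in a setting added after seeing the data, 2.68 with counts and no length scaling. The number of members beyond the fold was 0 of 6 with each scaling, filter and fold tried on mm10, where 1.69% to 9.63% of genes were. It was 1 with mm9 RPKM, namely Itih3, where 18.4% of genes were beyond 2-fold. Those mm9 ratios were not centred on their median over genes, which was 0.33 on the log2 scale. Of 24 log2 ratios of the members under other scalings on mm10, 7 stayed within the counting interval of the reported one, and the largest was 0.37. The leading model of each of the 6 genes was the same by counts and without each replicate. With shifted introns and junctions close to annotated ones included, there were 93 unannotated junctions with at least 10 reads in both counts. There were 186 with at least 5, 41 with at least 20, 141 with R2 left out and 123 with R1 left out.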

Other observations

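A few values were noticed only when the tables were read and were chosen after they were seen. Itih3 had the highest mean count of the family and the widest gap between libraries in TPM, in junction reads and in mm9 RPKM. Replicate 2 was the higher library by scaled counts (1.21-fold) and R2 the higher junction count, whereas RPKM1 was the higher mm9 value (2.48-fold). All of these values come from the same 2 libraries, so the gaps are not separate observations. The labels do not tie the mm9 values to a numbered library, and their directions were not compared with that of the scaled counts. The cause of the gaps was not tested.

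In Itih2 the mm9 transcript table listed ENSMUST00000042290 (3100 nt) at 0 and gave 155 and 93.9 RPKM to ENSMUST00000159437 (3122 nt). On mm10 the model with the first identifier, Itih2-201, held 99.87% and 99.88% of TPM. The 2 mm9 models share most exons, so a split between them is uncertain.

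In Itih4 the mm9 values of ENSMUST00000078490 were 69.2 and 3.71 RPKM and those of ENSMUST00000120269 were 4.76 and 23.3, whereas on mm10 the same identifiers held 44.4% and 44.4%, and 0.220% and 0.170%, of the gene's TPM in replicates 1 and 2.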
